A study of Mus musculus with 8 samples.

Results

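The 42 members described here are probes for genes that rose at least 2-fold when control pre-B cells were induced towards a macrophage-like state and that were also at least 2-fold lower in the uninduced line labelled Tet2 knockdown than in the uninduced control line. They were chosen from the authors' deposited log2 table by the means of each group, with a 24 h minus 0 h difference of at least 1 in control cells and a knockdown minus control difference of at most -1 at 0 h. Each probe also had to be well above background on both control arrays at 0 h, and 1 probe stood for each gene name. Gene names starting with Ccl, Clec, Ifi, Ifit, Oas, H2-, S100 or Fcgr were left out together with Cd74, which removed 6 genes, Ccl9, S100a4, Oasl1, Cd74, Ccl3 and Ccl4. The 42 members came from 31784 gene names on the array, carried by 39429 probes, of which 20304 probes were tested, and 37 of them were given a current gene symbol by accession and 2 by name. Both differences at the selection step are therefore properties of the choice, and the comparison of the lines at 24 h is the only one tested for the members.

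Gene expression was measured on 8 one-colour Agilent mouse arrays in C10 cells, a derivative of the mouse pre-B line HAFTL in which C/EBPα, a transcription factor, can be switched on. The 4 groups were the line with an shRNA labelled Tet2 knockdown after 24 h of induction, the same line at 0 h, the line with a control shRNA after 24 h, and the control line at 0 h, with 2 arrays each. Induced cells received 100 nM beta-estradiol with IL-3 and M-CSF at 10 ng/ml each, and all cells grew in medium with serum and puromycin. Each shRNA was represented by 1 line, and the series design describes the 2 arrays of a group as technical duplicates, so the p-values reflect how far duplicate arrays differ, and no spread between cultures was measured. Levels below are log2 processed signals minus the array's own 75th percentile, and ± values are standard errors of the fit with n = 2 arrays per group. A probe was called where the limma adjusted p over all 20304 probes was under 0.05 and the difference was at least 2-fold.

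C/EBPα is a basic leucine zipper factor that drives the granulocyte and macrophage programme, and when it is forced into B cell precursors it silences B cell genes and turns on myeloid ones together with PU.1. TET2 oxidises 5-methylcytosine in DNA, a step towards removal of the mark, and it is often lost in myeloid malignancies. Macrophages are known for phagocytosis, for sensing lipids, nucleotides and cytokines through surface receptors, and for secreting cytokines.

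The arrays had a 75th percentile of 722 to 1435 intensity units, 47.4% to 55.6% of probe spots were well above background, and duplicates correlated across probes with r of 0.992 to 0.994. In the knockdown-labelled line the Tet2 transcript did not pass the test for a lower level. Its level was 100% of control at 24 h (log2 difference 0.01 ± 0.10, limma adjusted p = 0.982) and 92.8% of control at 0 h (-0.11 ± 0.10, limma adjusted p = 0.537). A second Tet2 probe gave 0.16 at 24 h and -0.28 at 0 h. The endogenous Cebpa probe was not well above background on any array, and Spi1, which encodes PU.1, differed between the lines by 0.18 at 24 h and by 0.00 at 0 h. Cebpb, a related C/EBP factor, differed by -0.42 at 24 h (limma adjusted p = 0.0151) and by -0.51 at 0 h (limma adjusted p = 0.00899), short of 2-fold at both times. The 12 pre-B and B cell markers tested had a summed linear level at 0 h of 521 to 597 in knockdown-labelled arrays and 555 to 595 in control arrays. The 9 macrophage markers tested summed to 962 to 1047 in knockdown-labelled arrays and 968 to 1027 in control arrays at 24 h.

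Another 5 marker lists had lower summed levels on both knockdown-labelled arrays than on both control arrays at 0 h, where the members were chosen. In each list 0 to 2 of the 3 to 6 genes tested were called lower. Over all probes 1.32% were called lower at 0 h, and the share without overlap between the lines at that time is not given here. Stem and progenitor markers summed to 14.4 to 16.3 in knockdown-labelled arrays, against 33.6 to 37.6 in control arrays, with Ly6a and Egfl7 called lower among 3 tested. Erythroid and megakaryocyte markers summed to 6.66 to 6.68 in knockdown-labelled arrays, against 15.4 to 17.5 in control arrays, with Pf4 called among 4 tested, and T cell markers to 5.68 to 6.06 in knockdown-labelled arrays, against 9.10 to 9.87 in control arrays, with Cd2 called among 6. Stromal markers summed to 0.176 to 0.233 in knockdown-labelled arrays, against 0.654 to 0.680 in control arrays. The called gene among 4 tested was Sparc, itself a member. Sparc was chosen for a lower level at 0 h and is most of this sum, so the sum and the call largely restate the choice. NK and innate lymphoid markers summed to 8.86 to 9.05 in knockdown-labelled arrays, against 11.3 to 11.6 in control arrays, with 0 called among 4 tested.

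Several of these sums also did not overlap between the lines at 24 h, the time at which the members were tested. A lack of overlap was common then. Both knockdown-labelled arrays lay below both control arrays for 26.2% of all probes tested and above both for 33.5%. Pre-B and B cell markers summed to 404 to 423 in knockdown-labelled arrays, against 294 to 320 in control arrays, with 0 of 12 called. Dendritic cell markers summed to 63.2 to 63.4 in knockdown-labelled arrays, against 48.0 to 49.8 in control arrays, and of 7 tested Flt3 was called higher (1.28) and Itgax lower (-1.16). Lower sums were found for stem and progenitor markers, at 18.1 on both knockdown-labelled arrays and 22.6 to 23.6 in control arrays, and for erythroid and megakaryocyte markers, at 6.52 to 6.64 in knockdown-labelled arrays and 9.51 to 9.95 in control arrays. T cell markers summed to 4.37 to 5.09 in knockdown-labelled arrays and 5.35 to 5.47 in control arrays, and stromal markers, Sparc included, to 7.31 to 7.33 in knockdown-labelled arrays and 10.53 to 10.65 in control arrays, with Pdgfrb called lower (-1.17). The 1 mast cell and basophil marker tested had 0.099 to 0.105 in knockdown-labelled arrays and 0.079 to 0.097 in control arrays. The sums of NK and innate lymphoid markers overlapped at 24 h, at 2.24 to 2.35 in knockdown-labelled arrays and 2.11 to 2.29 in control arrays, though Klrb1c among them was called higher (1.64), as was Fcgr1 among the macrophage markers (1.15). The part of these other markers in the members' differences at either time was not tested, and in bulk cells fewer expressing cells and less RNA per cell cannot be told apart.

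At 0 h all 42 members were lower on both knockdown-labelled arrays than on both control arrays. The choice required a lower group mean in the authors' table, so this largely follows from it. On the scale used here the median difference was -1.66, and Ebi3 had the lowest value among members measured above background in both lines, at -3.15. The authors' table, on which the choice was made, gives smaller sizes, with a median of -1.34 and a lowest value of -2.12 for Lst1. Csf2 and 1600014C23Rik were not well above background on either knockdown-labelled array at 0 h, so only bounds can be given, at least 4.55-fold lower for Csf2 and at least 5.67-fold lower for 1600014C23Rik. These bounds set the control mean against, on each knockdown-labelled array, the higher of the probe's own value and the lowest signal found well above background. Ak4, Slc16a3, Sult1a1 and P2ry6 were well above background on 1 of the 2 knockdown-labelled arrays.

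The selected genes were few among the induced ones. Of 1609 gene names that rose at least 2-fold in control cells and were detected in both control arrays at 0 h, 48 (2.98%) were at or below -1 in the authors' table and 3 (0.186%) were at or above 1. These counts use the difference on which the members were chosen, and the requirement of detection on the control arrays leaves out genes that were dim in control cells, so the split is a description of the choice. The 3 were Myo5a, a motor protein that carries vesicles, Rnf149, a ubiquitin ligase, and Sema7a, a membrane-anchored semaphorin, and they were looked up after their values were seen. Just inside the limit at 0 h were Il12rb1 at -1.03, P2ry6 at -1.08 and Csf2 at -1.10, and just outside were Pi16 at -0.99, Nos3 at -0.99 and Ddah2 at -0.95. For the induction the nearest members were Slc16a3 at 1.04, Icosl at 1.13 and Pde4a at 1.28, and the nearest genes outside were Cox7a1 at 0.99, Ahnak at 0.91 and Plin3 at 0.89.

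**Figure D1:**
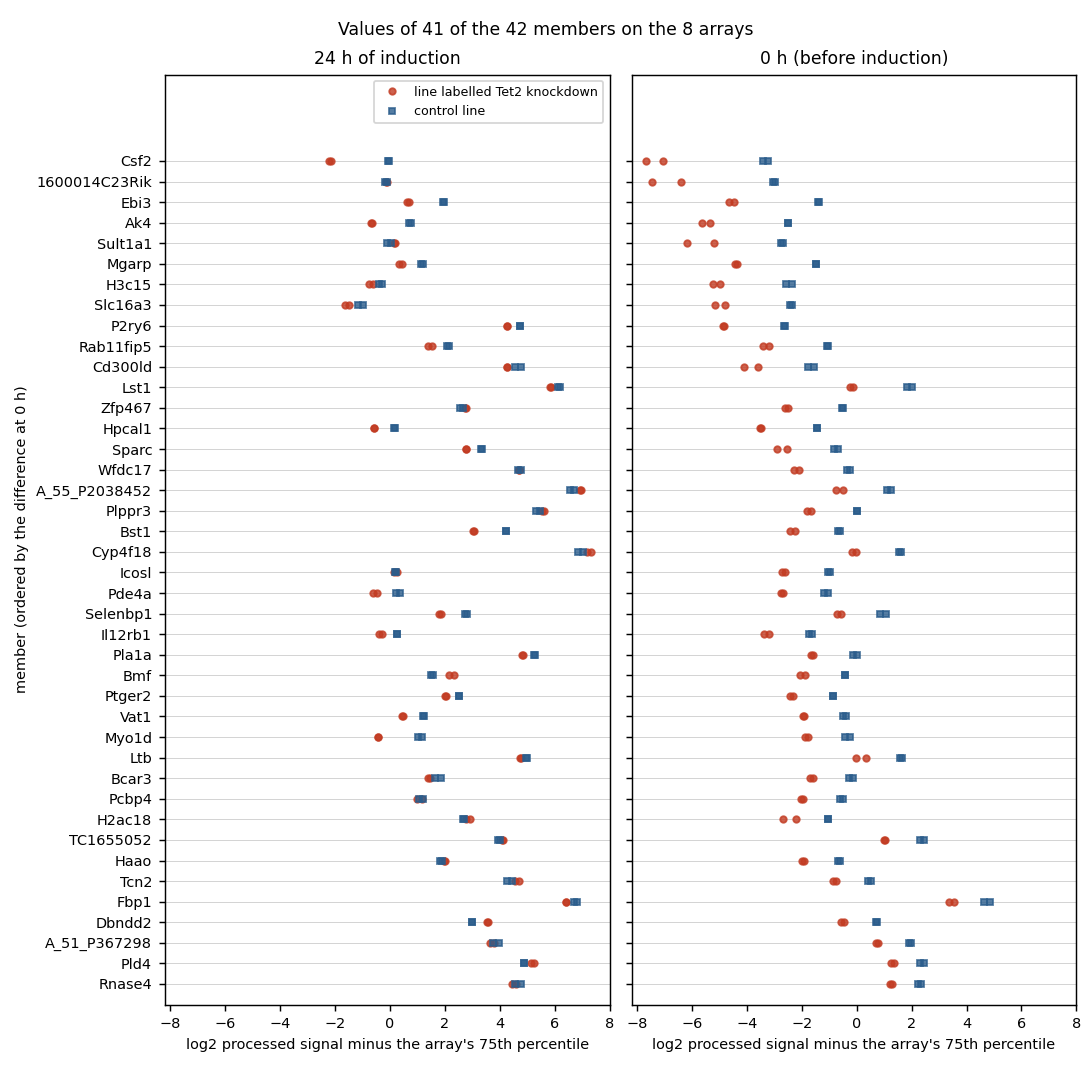
Level of 41 of the 42 members on each array, as log2 processed signal minus the array's 75th percentile, at 24 h (left) and 0 h (right); circles are the line labelled Tet2 knockdown and squares the control line, 2 arrays each. At 0 h both circles lie left of both squares for all 41 members drawn, and at 24 h 6 overlap, 12 have both circles to the right and 23 have both to the left.

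After 24 h of induction 5 of the 42 genes were still called lower in the knockdown-labelled line. At limma's adjusted p with no fold minimum 15 were lower, where 5.97% of all probes were. The 5 called lower were Csf2, Myo1d, Ak4, Ebi3 and Bst1, or 11.9% of the members, where 0.867% of all probes tested were called lower. None of the 42 was called higher, where 0.975% of all probes were; with no fold minimum 2 members, Bmf and Dbndd2, passed limma's adjusted p, where 6.77% of all probes did, and 6 members were higher at an unadjusted p under 0.05, where 17.2% of all probes were. The median difference over members was -0.32, with a range of -2.14 to 0.70, against a median of 0.04 over all probes tested. At an unadjusted p under 0.05, 21 members were lower, where 13.5% of all probes were. In all, 37 members reached at least 50% of the control level, counted as a log2 difference no lower than -1. Because the control arrays at 24 h had to be high for a gene to be chosen, this comparison is not fully independent of the choice.

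The same comparison can be set beside the other genes induced in control cells. Among 1561 other induction genes, 23 (1.47%) were called lower and 37 (2.37%) were called higher at 24 h, and their median difference was -0.06. Without the fold minimum, 15 members (35.7%) were lower at 24 h, against 248 of the other induction genes (15.9%) and 5.97% of all probes. With the replicate number, which is the slide, as a block, 18 members were lower, where 10.0% of all probes were, and 4 were higher, where 14.8% were. The 5 members that passed the adjusted p only with the block were Lst1, Fbp1, H3c15, Pld4 and Tcn2. Both knockdown-labelled arrays lay below both control arrays for 24 members, where 26.2% of all probes did so, and above both for 12 members, where 33.5% did. Of all members 27 (64.3%) had a difference below 0, of the other induction genes 58.9%, and of all probes 44.5%.

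**Figure D2:**
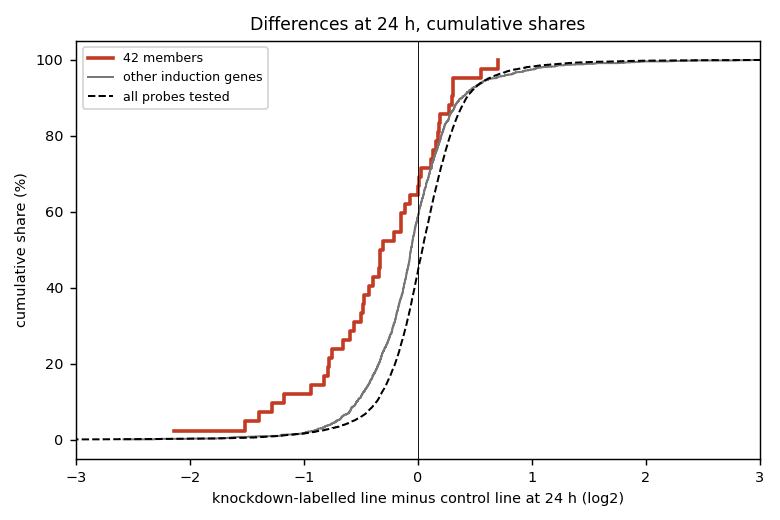
Cumulative share (vertical axis, %) of members, of other induction genes and of all probes tested against the knockdown-labelled minus control difference at 24 h (horizontal axis, log2). The curve of the 42 members starts at -2.14, and the other 2 sets reach lower values. At the lower quartile the members stood at -0.64, against -0.28 for the other induction genes and -0.15 for all probes. The medians were -0.32 for members, -0.06 for the other induction genes and 0.04 for all probes.

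The rise over 24 h had a median of 4.67 on the log2 scale in the knockdown-labelled line and 2.78 in the control line, values that carry the 0 h arrays used for the choice and so have no test. The rise was larger in the knockdown-labelled line for 41 of 42 members, Myo1d being the exception. On the authors' table this count was 40, with Csf2 the second exception. The corresponding medians over the other induction genes were 1.78 in the knockdown-labelled line and 1.67 in the control line.

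**Figure D3:**
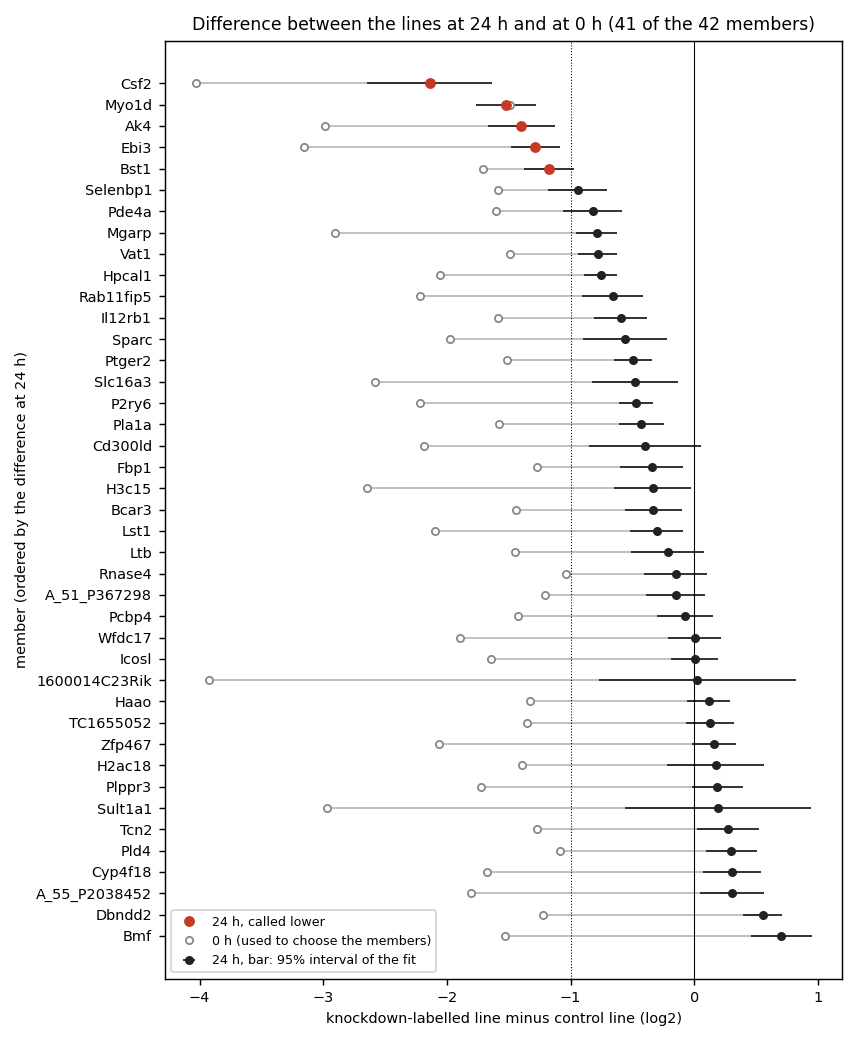
Knockdown-labelled minus control difference (log2, horizontal axis) of 41 of the 42 members at 24 h, as filled points with the 95% interval of the fit, and at 0 h, as open points that were used for the choice. Red points are the 5 members called lower at 24 h, and Myo1d is the one member drawn whose 24 h value is not nearer to 0 than its 0 h value.

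Of the 42, 4 members encode ligands of the immune system, and 2 of them, Csf2 and Ebi3, were called lower at 24 h. Csf2 encodes GM-CSF, a growth factor for granulocytes and macrophages. Its level at 24 h was -2.14 and -2.24 on the knockdown-labelled arrays, against -0.02 and -0.08 on the control arrays. The difference of -2.14 ± 0.20 corresponds to 22.7% of control (95% interval 16.0% to 32.3%, limma adjusted p = 0.00492). At 0 h it was -7.05 and -7.67 on the knockdown-labelled arrays, both not well above background, and -3.25 and -3.41 on the control arrays. Csf2 is carried by 10 spots on each array, and 3 outlier spots over the 8 arrays were left out of its means. Among the members Csf2 had the lowest 24 h level relative to control, and the lines did not overlap at either time.

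Ebi3 encodes the beta subunit shared by the cytokines IL-27 and IL-35. It stood at 0.62 and 0.68 on the knockdown-labelled arrays at 24 h, against 1.96 and 1.92 on the control arrays, which is 41.0% of control (-1.29 ± 0.08, limma adjusted p = 0.00163). At 0 h the values were -4.65 and -4.46 in knockdown-labelled cells, against -1.38 and -1.42 in control cells. Ltb, whose product lymphotoxin beta anchors lymphotoxin alpha at the cell surface, had 4.73 and 4.77 at 24 h in knockdown-labelled cells, against 4.95 and 4.98 in control cells (86.2% of control, limma adjusted p = 0.289). Its 0 h values were 0.34 and -0.01 in knockdown-labelled cells, against 1.58 and 1.63 in control cells. Icosl, the ligand of the T cell costimulator ICOS, had overlapping values at 24 h of 0.14 and 0.25 in knockdown-labelled cells, against 0.21 and 0.17 in control cells. At 0 h Icosl stood at -2.73 and -2.60 in knockdown-labelled cells, against -0.98 and -1.06 in control cells.

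Ltb lies beside another member on chromosome 17. Its probe, at 35333097 to 35333156 on mm9, is 10996 bases from that of Lst1 at 35322041 to 35322100, a small gene of leukocytes in the same cluster. Lta and Tnf lie in the same cluster and are not members. Lta, which encodes lymphotoxin alpha, differed by -0.14 at 24 h (limma adjusted p = 0.349) and by -1.35 at 0 h, and Tnf differed by -0.32 at 24 h and -0.30 at 0 h.

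The promoters of Csf2, Ebi3 and Ltb, and of Selenbp1 as 1 of 6 members with a C/EBP match, are printed to show which letters of 4 motifs they hold. Each runs from 250 bases before the gene start to 50 bases after it, as RefSeq gives it on GRCm38.p6, and capitals mark matches to the C/EBP motif TTGCNNAA or the NF-kB motif (GGGA, any 4 bases, then CC) on either strand.
Csf2 promoter, chr11:54249850-54250149, minus strand: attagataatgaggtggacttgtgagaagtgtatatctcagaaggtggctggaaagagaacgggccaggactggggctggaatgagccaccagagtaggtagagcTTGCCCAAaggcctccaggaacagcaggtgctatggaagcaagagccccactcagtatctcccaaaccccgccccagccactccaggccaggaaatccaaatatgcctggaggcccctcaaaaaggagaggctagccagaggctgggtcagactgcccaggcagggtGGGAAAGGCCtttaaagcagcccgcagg
Ebi3 promoter, chr17:55952373-55952672, plus strand: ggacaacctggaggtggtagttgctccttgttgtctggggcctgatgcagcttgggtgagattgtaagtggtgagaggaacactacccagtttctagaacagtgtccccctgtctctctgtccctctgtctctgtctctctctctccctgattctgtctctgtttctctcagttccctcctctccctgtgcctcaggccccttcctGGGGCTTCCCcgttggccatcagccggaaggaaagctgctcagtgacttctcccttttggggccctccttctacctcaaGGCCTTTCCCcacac
Ltb promoter, chr17:35194257-35194556, plus strand: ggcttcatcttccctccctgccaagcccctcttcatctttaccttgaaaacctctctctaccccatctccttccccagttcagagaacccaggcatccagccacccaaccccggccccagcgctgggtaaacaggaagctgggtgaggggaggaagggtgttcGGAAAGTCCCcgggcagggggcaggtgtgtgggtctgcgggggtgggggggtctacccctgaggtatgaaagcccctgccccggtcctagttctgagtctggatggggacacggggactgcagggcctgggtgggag
Selenbp1 promoter, chr3:94932833-94933132, plus strand: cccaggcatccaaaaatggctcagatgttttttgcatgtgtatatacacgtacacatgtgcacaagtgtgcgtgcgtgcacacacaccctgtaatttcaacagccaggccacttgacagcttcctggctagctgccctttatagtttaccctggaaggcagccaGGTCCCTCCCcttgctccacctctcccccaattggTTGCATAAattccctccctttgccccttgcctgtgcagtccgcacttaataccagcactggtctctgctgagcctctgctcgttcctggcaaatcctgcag
The Csf2 window holds a C/EBP match at -145 (the first base, counted from the gene start) and an NF-kB match at 22, the Ebi3 window NF-kB matches at -44 and 35, and the Ltb window an NF-kB match at -87. Selenbp1 has a C/EBP match at -51 and an NF-kB match at -86.

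Promoters were found for 29 members, and a gene counted where any of its windows held the motif. The C/EBP motif was present for 6 of 29 (20.7%), against 12.4% of other induction genes, 10.4% of all genes tested and 12.2% of all promoters in the table. For the NF-kB motif the shares were 48.3% of members, 32.7% of other induction genes, 29.3% of genes tested and 22.9% of all promoters. The PU.1 motif GAGGAAGT was found for 4 members (13.8%), against 5.29%, 3.88% and 3.69% in the same order, and the AP-1 motif TGANTCA for 0 of 29, against 8.75%, 6.39% and 8.97%. PU.1 and NF-kB matches can share letters, as they do in Cd300ld. The median number of CpG dinucleotides per window was 9 for members, 18 for other induction genes, 20 for all genes tested and 7 for all promoters. These shares describe letters in windows and have no test.

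Among 8 surface receptors and membrane proteins, 1 was called lower at 24 h and the median difference was -0.43. Bst1, an ADP-ribosyl cyclase anchored on stromal and myeloid cells, had 3.07 and 3.04 on the knockdown-labelled arrays at 24 h, against 4.24 and 4.22 on the control arrays. This is 44.3% of control (-1.17 ± 0.08, limma adjusted p = 0.00226). Its 0 h values were -2.26 and -2.44 in knockdown-labelled cells, against -0.61 and -0.68 in control cells. A second Bst1 probe gave -1.01 at 24 h and was called lower too.

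P2ry6, a receptor for UDP that promotes phagocytosis in microglia, had the largest 24 h difference of the members in control cells. Its level at 24 h was 4.24 and 4.26 on the knockdown-labelled arrays, against 4.72 and 4.73 on the control arrays (72.2% of control, limma adjusted p = 0.00861, short of 2-fold). At 0 h it was -4.87 and -4.82 in knockdown-labelled cells, against -2.61 and -2.64 in control cells. The 24 h minus 0 h difference of P2ry6 was 9.10 on the log2 scale in the knockdown-labelled line and 7.35 in the control line. Cd300ld, an activating receptor of the CD300 family on myeloid cells, had 4.26 and 4.27 at 24 h in knockdown-labelled cells, against 4.78 and 4.54 in control cells (75.9%, limma adjusted p = 0.209). Its 0 h values were -4.10 and -3.61 in knockdown-labelled cells, against -1.56 and -1.78 in control cells.

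Lst1, which encodes a transmembrane adaptor of leukocytes, had the lowest 0 h value in the authors' table. It stood at 5.88 and 5.83 at 24 h in knockdown-labelled cells, against 6.20 and 6.12 in control cells (81.0%, limma adjusted p = 0.0771, and 0.0251 with the replicate block), and at -0.14 and -0.23 at 0 h in knockdown-labelled cells, against 2.01 and 1.82 in control cells. Its other probe differed by -0.25 at 24 h and -0.42 at 0 h, so the probes disagree on the size at 0 h.

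A pair of receptors of soluble mediators passed limma's adjusted p at 24 h without reaching 2-fold. Ptger2, the prostaglandin E2 receptor EP2, had 1.99 and 2.04 on the knockdown-labelled arrays, against 2.50 and 2.53 on the control arrays (70.8%, limma adjusted p = 0.0095). Il12rb1, a chain shared by the IL-12 and IL-23 receptors, had -0.40 and -0.29 in knockdown-labelled cells, against 0.26 and 0.24 in control cells (66.2%, limma adjusted p = 0.0147), while its other probe differed by 0.05. Their 0 h differences were -1.51 for Ptger2 and -1.59 for Il12rb1. The other Il12rb1 probe had -0.45 at 0 h and a control induction of 0.77, both short of 2-fold. Plppr3, a lipid phosphatase-related membrane protein best known from neurons, had 5.60 and 5.53 in knockdown-labelled cells, against 5.45 and 5.31 in control cells. At 0 h Plppr3 stood at -1.65 and -1.80 in knockdown-labelled cells, against 0.01 and -0.01 in control cells. The other Plppr3 probe did not show the pattern, with 0.59 at 0 h and a control induction of -1.01, so the member rests on 1 of the 2 probes.

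The 5 secreted proteins had a median difference of -0.15 at 24 h, and none was among the 5 called lower. Sparc, a collagen-binding matrix protein, had 2.76 on both knockdown-labelled arrays, against 3.34 and 3.31 on the control arrays (67.9%, limma adjusted p = 0.0536), and -2.91 and -2.52 at 0 h in knockdown-labelled cells, against -0.67 and -0.82 in control cells. Pla1a, a phosphatidylserine-specific phospholipase, had 4.86 and 4.81 at 24 h in knockdown-labelled cells, against 5.23 and 5.29 in control cells (74.3%, limma adjusted p = 0.0226), and -1.68 and -1.59 at 0 h in knockdown-labelled cells, against 0.01 and -0.12 in control cells. Wfdc17, a small secreted protein of activated macrophages, had 4.72 on both knockdown-labelled arrays at 24 h, against 4.76 and 4.66 in control cells. At 0 h Wfdc17 was at -2.29 and -2.11 in knockdown-labelled cells, against -0.26 and -0.35 in control cells. Its arrays at 24 h overlapped between the lines.

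Tcn2, the carrier of vitamin B12 in plasma, had 4.70 and 4.57 at 24 h in knockdown-labelled cells, against 4.46 and 4.27 in control cells (121%, limma adjusted p = 0.14, and 0.0233 with the replicate block), and -0.74 and -0.88 at 0 h in knockdown-labelled cells, against 0.52 and 0.41 in control cells. Rnase4, a secreted ribonuclease, had 4.58 and 4.44 at 24 h in knockdown-labelled cells, against 4.77 and 4.54 in control cells (90.2%), and 1.21 and 1.28 at 0 h in knockdown-labelled cells, against 2.34 and 2.22 in control cells. The Rnase4 values of the lines overlapped at 24 h.

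Of 9 metabolic enzymes and transporters 1 was called lower at 24 h, with a group median of -0.34. Ak4, a mitochondrial adenylate kinase, had -0.67 and -0.66 on the knockdown-labelled arrays, against 0.76 and 0.70 on the control arrays. That is 38.0% of control (-1.40 ± 0.11, limma adjusted p = 0.00301). Its 0 h values were -5.64 and -5.33 in knockdown-labelled cells, against -2.50 in both control arrays. Selenbp1, a selenium-binding protein with methanethiol oxidase activity, came next, with 1.80 and 1.86 in knockdown-labelled cells, against 2.79 and 2.74 in control cells (52.1%, limma adjusted p = 0.00592). It had -0.70 and -0.56 at 0 h in knockdown-labelled cells, against 1.07 and 0.85 in control cells. Mgarp, a mitochondrial protein, had 0.32 and 0.43 at 24 h in knockdown-labelled cells, against 1.14 and 1.19 in control cells (58.0%, limma adjusted p = 0.00369), after -4.35 and -4.42 at 0 h in knockdown-labelled cells, against -1.47 and -1.49 in control cells.

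Slc16a3 encodes the lactate exporter MCT4, and Fbp1 an enzyme of gluconeogenesis. Slc16a3 had -1.49 and -1.63 at 24 h in knockdown-labelled cells, against -1.0 and -1.16 in control cells (71.7%, limma adjusted p = 0.0839), and -5.17 and -4.80 at 0 h in knockdown-labelled cells, against -2.36 and -2.45 in control cells. Fbp1 had 6.41 and 6.43 at 24 h in knockdown-labelled cells, against 6.82 and 6.70 in control cells (78.8%, limma adjusted p = 0.087, and 0.0338 with the replicate block), and 3.56 and 3.38 at 0 h in knockdown-labelled cells, against 4.84 and 4.63 in control cells. Without the block, neither 24 h difference passed the test.

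Cyp4f18, a leukotriene and fatty acid hydroxylase of myeloid cells, was the metabolic member with the largest 24 h difference in control cells. It had 7.32 and 7.19 at 24 h in knockdown-labelled cells, against 7.03 and 6.86 in control cells (124%, limma adjusted p = 0.0957), and -0.16 and -0.03 at 0 h in knockdown-labelled cells, against 1.63 and 1.54 in control cells. A second member, known only by the probe name A_55_P2038452, had 6.95 and 6.93 at 24 h in knockdown-labelled cells, against 6.70 and 6.56 in control cells, and -0.75 and -0.51 at 0 h in knockdown-labelled cells, against 1.23 and 1.12 in control cells. The 2 probes overlap by 49 genome bases on the minus strand of chromosome 8 on mm9, and they differ at 2 of those bases, which are in capitals below. They are printed because their targets overlap, so the 2 members are not independent of each other.
Cyp4f18 probe, chr8:74512382-74512441: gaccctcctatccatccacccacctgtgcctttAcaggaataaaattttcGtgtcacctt
A_55_P2038452 probe, chr8:74512371-74512430: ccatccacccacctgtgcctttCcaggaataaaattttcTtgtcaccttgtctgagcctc
A further Cyp4f18 probe gave 0.29 at 24 h and -1.72 at 0 h, close to the member's 0.31 and -1.68. In the authors' table the 24 h differences were smaller, 0.02 for Cyp4f18 and 0.15 for A_55_P2038452.

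The other 3 enzymes were above control on both knockdown-labelled arrays at 24 h, and none passed the test without the replicate block. Pld4, an endolysosomal exonuclease of single-stranded nucleic acids, had 5.24 and 5.14 in knockdown-labelled cells, against 4.89 on both control arrays (123%, limma adjusted p = 0.0725, and 0.0268 with the replicate block). Haao, an enzyme of tryptophan breakdown, had 1.98 and 1.99 in knockdown-labelled cells, against 1.91 and 1.82 in control cells (108%). Sult1a1, a phenol sulfotransferase, had 0.18 and 0.14 in knockdown-labelled cells, against 0.04 and -0.12 in control cells (114%). At 0 h Pld4 had 1.35 and 1.24 in knockdown-labelled cells, against 2.45 and 2.30 in control cells, and Haao -2.01 and -1.94 in knockdown-labelled cells, against -0.69 and -0.59 in control cells. Sult1a1 at 0 h had -6.19 and -5.22 in knockdown-labelled cells, against -2.70 and -2.76 in control cells.

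The 7 signalling, traffic and motor proteins had the lowest group median at 24 h, -0.76, and 1 was called lower. Myo1d, an unconventional myosin of membranes and the cell cortex, had -0.44 and -0.43 on the knockdown-labelled arrays, against 1.16 and 1.02 on the control arrays. This is 34.8% of control (-1.52 ± 0.10, limma adjusted p = 0.00175). At 0 h Myo1d had -1.88 and -1.76 in knockdown-labelled cells, against -0.23 and -0.43 in control cells, or 35.7% of control. Its 24 h level was 2.61-fold the 0 h level in the knockdown-labelled line and 2.68-fold in the control line, and the difference between the lines was -1.49 at 0 h.

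A further 4 genes of this group passed limma's adjusted p at 24 h short of 2-fold. Pde4a, a cyclic AMP phosphodiesterase, had -0.46 and -0.61 in knockdown-labelled cells, against 0.37 and 0.20 in control cells (56.6%, limma adjusted p = 0.00804). Vat1, a membrane protein first found on synaptic vesicles, had 0.46 and 0.42 in knockdown-labelled cells, against 1.21 and 1.24 in control cells (58.2%, limma adjusted p = 0.00334). Hpcal1, a neuronal calcium sensor protein, had -0.57 and -0.58 in knockdown-labelled cells, against 0.20 and 0.16 in control cells (59.2%, limma adjusted p = 0.00238), and its other probe gave -0.27. Rab11fip5, an effector of recycling endosomes, had 1.37 and 1.53 in knockdown-labelled cells, against 2.09 and 2.13 in control cells (63.3%, limma adjusted p = 0.016). In all 4 the arrays of the lines did not overlap.

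Their 0 h differences were -1.60 for Pde4a, -1.49 for Vat1, -2.05 for Hpcal1 and -2.22 for Rab11fip5. The other Hpcal1 probe had -0.76 at 0 h and a control induction of 0.21, both short of 2-fold. The other Pde4a probe had -1.47 at 0 h and a control induction of 1.24. Bcar3, an adaptor that activates small GTPases downstream of integrins, had 1.44 and 1.39 at 24 h in knockdown-labelled cells, against 1.84 and 1.66 in control cells (79.5%, limma adjusted p = 0.0758), and differed by -1.44 at 0 h. Dbndd2, a dysbindin-domain protein, went the other way, with 3.53 and 3.58 at 24 h in knockdown-labelled cells, against 3.0 and 3.01 in control cells (147%, 0.55 ± 0.06, limma adjusted p = 0.00804). At 0 h Dbndd2 had -0.56 and -0.46 in knockdown-labelled cells, against 0.73 and 0.69 in control cells. Its other probe was well above background on only 1 control array at 0 h. That probe differed by 0.37 at 24 h and -0.44 at 0 h, with a control induction of 0.60, short of 2-fold.

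The 5 nuclear, RNA-binding and apoptosis proteins had a median difference of 0.16 at 24 h, and none was among the 5 called lower. Bmf, a BH3-only protein that promotes apoptosis, had 2.14 and 2.34 on the knockdown-labelled arrays, against 1.50 and 1.56 on the control arrays. This is 163% of control (0.70 ± 0.10, limma adjusted p = 0.0129), the highest value among the members. At 0 h Bmf had -2.06 and -1.87 in knockdown-labelled cells, against -0.44 and -0.43 in control cells. Zfp467, a zinc finger protein, had 2.77 and 2.74 at 24 h in knockdown-labelled cells, against 2.65 and 2.54 in control cells (112%), and -2.52 and -2.63 at 0 h in knockdown-labelled cells, against -0.54 and -0.48 in control cells. The 3 other Zfp467 probes differed by -1.94, -2.09 and -0.90 at 0 h. At 24 h they differed by 0.12, -0.32 and -0.21, so the Zfp467 probes disagree on the sign at 24 h.

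Pcbp4, an RNA-binding protein, had overlapping values of 1.15 and 0.99 at 24 h in knockdown-labelled cells, against 1.22 and 1.07 in control cells, and differed by -1.43 at 0 h. H2ac18 and H3c15 are histone genes from multigene families whose copies a probe may not tell apart. H2ac18 had 2.77 and 2.92 at 24 h in knockdown-labelled cells, against 2.65 and 2.70 in control cells, and -2.68 and -2.21 at 0 h in knockdown-labelled cells, against -1.05 on both control arrays. H3c15 had -0.62 and -0.75 at 24 h in knockdown-labelled cells, against -0.30 and -0.40 in control cells (79.2%, limma adjusted p = 0.14, and 0.0243 with the replicate block), and -4.99 and -5.23 at 0 h in knockdown-labelled cells, against -2.35 and -2.59 in control cells.

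Of the remaining probes, 1600014C23Rik carries a current gene symbol with no described role here, and the others carry no gene symbol. The 1600014C23Rik probe had -0.14 and -0.10 at 24 h in knockdown-labelled cells, against -0.11 and -0.18 in control cells, with a wide 95% interval of 58.7% to 177% of control. TC1655052 had 4.13 and 4.06 at 24 h in knockdown-labelled cells, against 4.01 and 3.92 in control cells, and 1.04 and 1.01 at 0 h in knockdown-labelled cells, against 2.45 and 2.30 in control cells. A_51_P367298 had overlapping values of 3.77 and 3.66 at 24 h in knockdown-labelled cells, against 3.97 and 3.75 in control cells, and differed by -1.20 at 0 h. None of these was called at 24 h.

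The array's layout let the lines be compared within each slide, since each slide held 1 array of every group. The median difference at 24 h was -0.32 on slide 1 and -0.27 on slide 2, and 39 of 42 members had the same sign on both. The same 5 members, those called lower, were below -1 on both slides. The slides split the arrays used for the calls, so neither count is a separate check. The calls required a difference of at least 2-fold on these arrays, so the 5 largely restate them. Over all probes tested, both knockdown-labelled arrays lay below both control arrays for 26.2% and above both for 33.5%. Such probes must have the same sign on both slides, and the full share of same-sign probes is not given here.

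**Figure D4:**
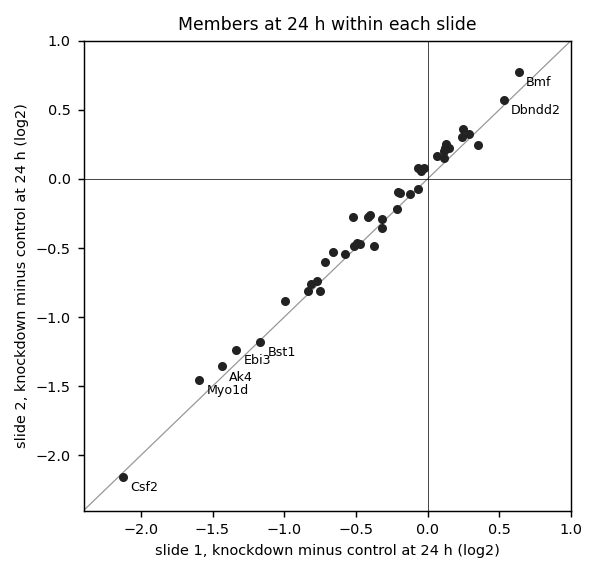
Knockdown-labelled minus control difference at 24 h (log2) of each member on slide 1 (horizontal axis) and slide 2 (vertical axis), with 1 array per group on each slide and a line of equality. Csf2 is at the lower left with -2.12 on slide 1 and -2.15 on slide 2, and Bmf at the upper right with 0.64 and 0.77.

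Other probes existed for 11 of the genes, 13 in all. Of these, 12 were below 0 at 0 h, 7 were at or below -1, and 9 rose at least 2-fold in control cells. The 42 probes were spread over the genome, with 9 (21.4%) on chromosome 11, which carries 8.46% of the probes tested, and 5 (11.9%) on chromosome 17, which carries 4.98%. These shares were looked at after the members were known and have no test.

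Genes of related pathways were read from lists written with earlier results of these data known, with the members left out. Among 373 such genes, 13 were called lower and 18 higher at 24 h, where 0.867% of all probes were called lower and 0.975% higher. At 0 h 13 were called lower and 3 higher, where 1.32% of all probes were called lower and 0.315% higher. Of the 10 other cytokines and chemokines, Il6, the gene of interleukin 6, differed by -0.72 at 24 h (limma adjusted p = 0.00559, short of 2-fold) and by -1.63 at 0 h (limma adjusted p = 0.00113). Lta was the second of the 2 called lower at 0 h. Of 32 other genes of glycolysis and the hypoxia response, 1 was called lower at 24 h and 2 at 0 h. Eno2, an enolase, differed by -1.38 at 24 h (limma adjusted p = 0.0242) and was not well above background on either knockdown-labelled array at 0 h, and Pfkl, a phosphofructokinase, differed by -0.21 at 24 h and -1.06 at 0 h.

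Among 25 genes of lipid handling, Plin3, a coat protein of lipid droplets that fell just outside the induction limit, was the 1 called lower at 24 h (-2.79, limma adjusted p = 0.0033). Of 29 myeloid surface receptors, 4 were called lower at 24 h. They were the inhibitory receptor gene Lilrb4a (-2.09), the scavenger receptor Msr1 (-1.84, well above background on 1 of the 2 knockdown-labelled arrays), the costimulator Cd80 (-1.21) and the integrin chain Itgax (-1.16). At 0 h 1 of them was called lower, Tyrobp, an adaptor of activating receptors, at -1.02 (limma adjusted p = 0.0054), and it differed by 0.22 at 24 h. Of 22 genes of the NF-kB pathway, Bcl3, an IkB-related cofactor, was the 1 called lower at 24 h (-1.14, limma adjusted p = 0.0274). The interferon response list moved the other way at 24 h, with 16 of 29 genes called higher, so 16 of the 18 calls above control came from it.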

How the data were processed

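Total RNA (500 ng per sample) was amplified and Cy3-labelled, per the labels' protocols. Per the file headers, spots were read with Feature Extraction 10.7.3.1 (protocol GE1_107_Sep09), and the deposited intensity values hold a background-subtracted processed signal with no scaling between arrays. The deposited table holds log2 values with a median of 6.84 in every column, and the submitters' processing notes name limma without a version. The table was matched by normexp (offset 50) with quantile normalization. How the submitters chose these steps is not given in the sources used here.

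Spots of a probe were averaged without control and outlier spots. Log2 processed signal minus the array's 75th percentile was fitted with limma 3.58.1 in R 4.3.3 to 4 group means (4 residual and 1.57 prior degrees of freedom, median standard error 0.10) for the 20304 probes that were well above background in both duplicates of some group, with Benjamini-Hochberg adjustment and 2-sided tests. The fit was run on simulated data in which 200 probes were changed by known folds and the noise was independent between arrays. The simulation left out shared deviations of arrays on a slide and differences between cultures, so it bears on neither. The number of arrays limits the precision.

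The members and lists were chosen with earlier results of these data known. The selection was applied to probe means of the deposited table, and 42 probes passed. Of these, 1 is counted but not reported by name here. Genes named outside the members were Tet2, Cebpa, Cebpb, Spi1, those nearest the limits and those behind counts of 5 or fewer. Per the labels and file headers, equal replicate numbers share a slide, and deviations of same-numbered arrays correlated by 0.29 to 0.39 over probes in all 6 pairs of groups. Each array was left out in turn, and scaling, background correction, filters and a replicate block were varied.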

Additional observations from a re-analysis of the deposited data

Results flagged for a closer look

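For 12 members both knockdown-labelled arrays lay below both control arrays at 0 h, where the choice required a lower group mean, and above both at 24 h. The knockdown minus control difference at 24 h (log2) was 0.70 for Bmf, 0.55 for Dbndd2, 0.31 for Cyp4f18, 0.31 for A_55_P2038452, 0.30 for Pld4 and 0.27 for Tcn2. It was 0.19 for Sult1a1, 0.19 for Plppr3, 0.17 for H2ac18, 0.16 for Zfp467, 0.13 for TC1655052 and 0.12 for Haao. Other probes of Zfp467 gave 0.12, -0.32 and -0.21 at 24 h and the other Plppr3 probe -0.05, so for both genes the sign differs between probes. Other probes of Dbndd2 (0.37), Cyp4f18 (0.29) and Sult1a1 (0.13) were above 0. The difference between the times was not tested, because the 0 h side was used for the choice, and 33.5% of all probes had both knockdown-labelled arrays above both control arrays at 24 h. Of the 12, Bmf and Dbndd2 passed limma's adjusted p at 24 h without reaching 2-fold, and with the replicate block Pld4 and Tcn2 did as well. Cyp4f18 and A_55_P2038452 share 49 probe bases in the genome and are not independent of each other. In the authors' table their differences at 24 h were smaller, 0.02 for Cyp4f18 and 0.15 for A_55_P2038452.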

How the results depend on the processing

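The 5 members called lower at 24 h were Ak4, Bst1, Csf2, Ebi3 and Myo1d under every alternative that kept their probes and the fold minimum, including each array left out, and their count was 5 with the replicate block, which changed no call at the 2-fold minimum. Without that minimum the block moved 5 members under the adjusted p threshold (3 lower, 2 higher) and 0 over it, and over all probes the counts were 2031 lower and 3005 higher with the block. Requiring a signal well above background on all 8 arrays left 36 members tested, of which 3 were called lower (Bst1, Ebi3 and Myo1d), with a median of -0.26. With no fold minimum 15 members were lower and 2 higher. The median at 24 h was -0.38 with scaling to the median and ranged from -0.36 to -0.25 with 1 array left out. Leaving out the 4 probes without a described gene, 1600014C23Rik among them, gave a median of -0.34. These 4 were chosen after seeing the data.

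Over all probes the calls at 24 h depended more on the processing. There were 61 lower and 114 higher with the 8-array filter (176 and 198 as reported), 84 and 107 in the authors' table and with normexp, 83 and 122 with no filter, and 1213 and 1374 with no fold minimum. Of 378 list genes tested, members included, 18 were called lower and 3 higher at 0 h, and 15 lower and 18 higher at 24 h. Members were chosen to be lower at 0 h, so their calls at 0 h restate the choice. Without members, 13 of 373 were called lower and 3 higher at 0 h. The counts that follow include members. Those lower at 0 h were 11 with the 8-array filter, in the authors' table and with normexp, and 78 with no fold minimum. Those higher at 0 h were 0 in the authors' table and with normexp, 32 with no fold minimum, and 1 to 7 with 1 array left out (1 without control 0 h replicate 1, 7 without knockdown 0 h replicate 1). At 24 h the list genes called lower were 4 with the 8-array filter, 9 with no filter and 61 with no fold minimum, and 9 to 14 with 1 array left out (9 without either control 24 h array). Those higher were 64 with no fold minimum. Tet2 at 0 h differed by -0.28 within slide 1 and by 0.065 within slide 2.

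Applied to the 75th percentile scale, the selection found 101 genes, with all 42 among them. It found 75 at a limit of -0.8, 10 at -1.5 and 27 at an induction of at least 2, and between 42 and 48 with 1 array left out. Signals near background limit the 0 h sizes, and technical duplicates give no error between cultures. The cause of these shifts was not tested.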
